A study of Mus musculus with 2 samples.

Results

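Small nucleolar, Cajal body and spliceosomal RNAs were taken from the deposited table of round spermatids as every gene whose symbol begins with Snord, Snora, Scarna or Rnu, which gave 116 of 23234 genes. They comprised 68 box C/D small nucleolar RNA (snoRNA) genes (Snord), 36 box H/ACA snoRNA genes (Snora), 9 Cajal body RNA genes (Scarna) and 3 Rnu genes, namely Rnu11, Rnu12 and Rnu73b. The values came from 1 library labelled Epc-dKO, from C57BL/6 mice deficient for both Epc1 and Epc2, and 1 library from wild-type C57BL/6 mice. The labels do not give the alleles, the age of the animals or how the cells were isolated. Each value is an FPKM, the number of fragments divided by transcript length and by a total of fragments for that library. Since a single library stands for each genotype, differences could not be set against replicates and were not tested. Fewer cells of a type and less RNA per cell cannot be told apart in such bulk samples.

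Box C/D snoRNAs carry the C box and the D box near their ends, bind fibrillarin and guide 2′-O-methylation of ribosomal and spliceosomal RNA. Box H/ACA snoRNAs fold into hairpins followed by the H box and the ACA box, bind dyskerin and guide the conversion of uridine to pseudouridine. Cajal body RNAs use the same boxes and act on the spliceosomal RNAs, and U11 (Rnu11) and U12 (Rnu12) recognise introns of the minor class. Most vertebrate snoRNAs are cut out of the introns of host genes, many of which encode ribosomal proteins.

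The sequences of a few members the results turn on show the boxes that define the classes. They are transcript sequences of GENCODE M21 (GRCm38, written 5′ to 3′ with T for U), looked up by symbol, and all 116 members had an entry. The first pair are box C/D RNAs with the matches to TGATGA (C box) and CTGA (D box) in capitals.
Snord33: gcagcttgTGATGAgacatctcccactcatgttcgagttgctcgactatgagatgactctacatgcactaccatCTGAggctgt
Snord15b: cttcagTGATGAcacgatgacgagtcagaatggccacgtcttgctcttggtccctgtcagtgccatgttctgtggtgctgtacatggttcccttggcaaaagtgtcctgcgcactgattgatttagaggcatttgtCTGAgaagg
The next are box H/ACA RNAs with the ACA box in capitals, 3 nt from the end.
Snora78: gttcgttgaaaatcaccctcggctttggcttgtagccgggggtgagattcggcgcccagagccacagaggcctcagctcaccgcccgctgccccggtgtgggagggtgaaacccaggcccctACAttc
Snora31: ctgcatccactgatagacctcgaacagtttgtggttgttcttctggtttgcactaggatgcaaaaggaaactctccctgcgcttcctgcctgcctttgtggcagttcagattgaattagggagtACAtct
The last is U11 small nuclear RNA with the match to TTTTTGG in capitals, a stretch of the kind bound by the Sm ring.
Rnu11: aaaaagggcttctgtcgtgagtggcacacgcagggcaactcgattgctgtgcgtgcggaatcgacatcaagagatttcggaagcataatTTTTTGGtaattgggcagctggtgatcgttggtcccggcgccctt

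The boxes followed the classes named by the symbols. TGATGA within the first 25 nt and CTGA within the last 15 nt, read on the transcript strand only, were both present in 41 of the 68 Snord transcripts and in 0 of the 36 Snora transcripts. Both were present in 4.16% of 5726 other annotated transcripts of 60 to 150 nt. ACA at 3 nt from the end was present in 30 of the 36 Snora transcripts, 0 of the 68 Snord transcripts and 6.08% of the other transcripts. TTTTTGG occurred in Rnu11 alone among the 116 members and in 0.926% of the other transcripts. Rnu73b carried both TGATGA and CTGA in those windows and lies within Rps3a together with Snord73a, so by these letters it falls with the box C/D class. An absent match says only that these letters are not in the window.

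Most members were listed at 0 in both libraries. An FPKM above 0 was given for 29 members in the library labelled Epc-dKO and for 31 in the wild-type library. In all, 15 members were above 0 in both libraries, 14 in the library labelled Epc-dKO alone, 16 in the wild-type library alone and 71 (61.2%) in neither. Over all 23234 genes, 3.28% were above 0 in the library labelled Epc-dKO and listed at 0 in wild type, and 3.58% were above 0 in wild type and listed at 0 in the library labelled Epc-dKO. Genes with a microRNA symbol are another class of very short genes. Of 613 such genes, 40 were above 0 in the library labelled Epc-dKO alone, 37 in wild type alone and 496 (80.9%) in neither, while 2538 of the 23118 genes outside the 116 were in neither.

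**Figure D1:**
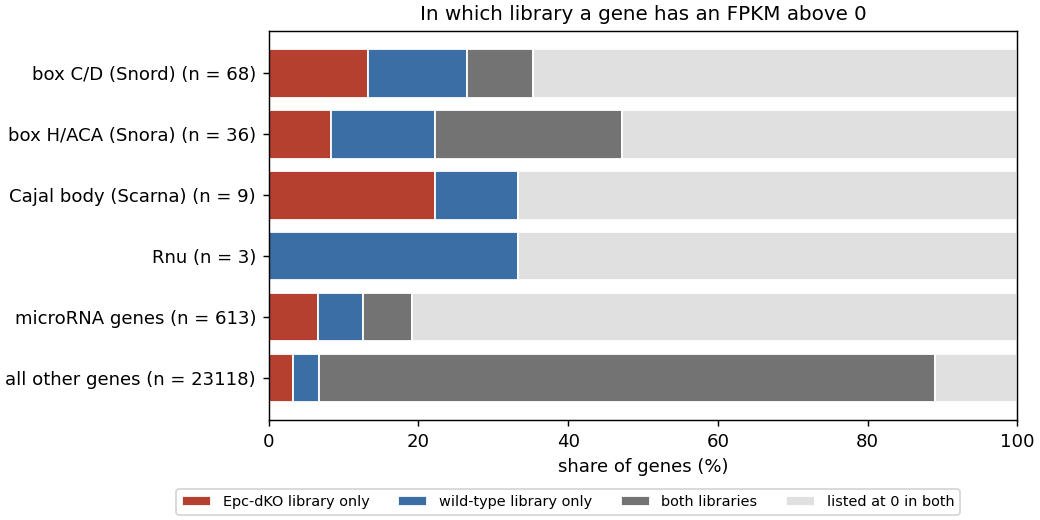
Share of genes (x axis, percent) with an FPKM above 0 in the library labelled Epc-dKO only, the wild-type library only, both or neither, for the 4 classes of members, microRNA genes and all other genes. In each class of members most genes were listed at 0 in at least 1 library, and 9 of the 36 Snora genes were above 0 in both.

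The values of the members moved in steps of whole fragments, so the reads behind them could be counted. Among genes that are not members and had values in both libraries, the commonest ratio of the library labelled Epc-dKO over wild type was 0.9053, shared by 497 genes within 0.0002. The next commonest was 0.4527. Genes with equal, small numbers of fragments in both libraries must share 1 ratio. The total that scales the FPKM of the library labelled Epc-dKO was therefore 1.105 times that of wild type. This total is called depth below. The scaling was not stated, so depth need not be the number of mapped fragments. The value of 1 fragment at each annotated length was then fitted on 133 values of microRNA genes. A Gaussian distribution of fragment lengths with mean 200 nt and SD 80 nt, from 47 nt upward, gave the most coincident values. With it, 89 of the 133 were whole numbers of fragments within 1%. The distribution describes the length correction that fits the FPKM and does not measure the fragments of these libraries. Applied to the members, which had not entered the fit, it gave whole numbers for 53 of 58 values with RefSeq lengths, and for 14 of 58 with the GENCODE lengths. The exceptions were Snora28 at 2.07 fragments in the library labelled Epc-dKO and 1.03 in wild type, and Scarna13, Snord35b and Snord58b at 2.04, 1.06 and 0.5 in wild type. Snora28 has a RefSeq length of 122 nt. Its 11.7 FPKM in the library labelled Epc-dKO and 6.44 FPKM in wild type equal 2 fragments and 1 fragment at 121 nt. At that length 1 fragment is 5.83 and 6.44 FPKM in the same order of libraries. Snora24 and Snora26 had a further wild-type value each of under 0.001 FPKM, which stands for no fragment. The implied scaling totals, rounded, were 41000000 to 42200000 fragments for the library labelled Epc-dKO and 37100000 to 38200000 for wild type. Each range depends on whether the part of the distribution below 47 nt is counted.

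**Figure D2:**
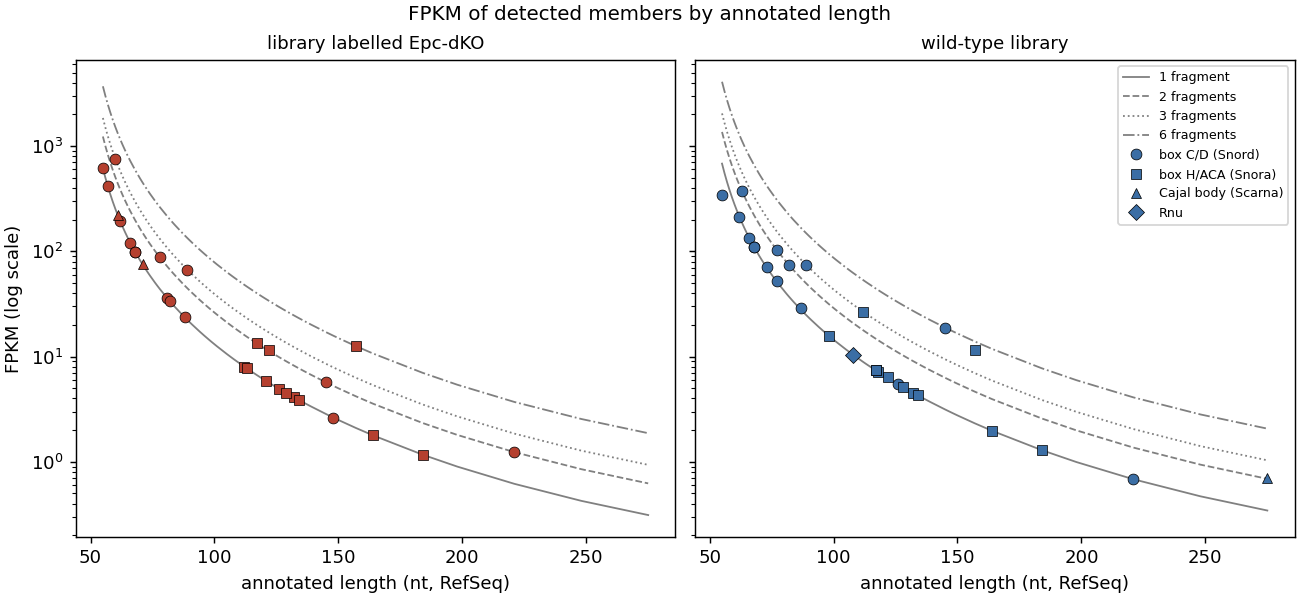
FPKM (y axis, log scale) of each member with a value above 0.001 against its RefSeq length in nt (x axis), for the library labelled Epc-dKO (left) and the wild-type library (right). Grey lines give the FPKM of 1, 2, 3 and 6 fragments, and nearly all points lie on the line of 1 fragment or of another whole number.

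Most values rested on 1 fragment. Of the 58 values, 39 equalled 1 fragment within 1% (21 in the library labelled Epc-dKO and 18 in wild type), 7 equalled 2 fragments, and 7 exceeded 2.1. The highest was 6 fragments, reached by Snora78 in the library labelled Epc-dKO and by Snord15b in wild type. Summed over all members there were 43.1 fragments in the library labelled Epc-dKO and 45.6 in wild type. The exact 95% Poisson intervals of the rounded sums were 31.1 to 57.9 and 33.7 to 61.4, in that order of libraries. Scaled to depth, the ratio of the library labelled Epc-dKO over wild type was 0.846, with an exact 95% binomial interval of 0.545 to 1.31, so no difference in the class as a whole was detectable at this depth. For box C/D RNAs the sums were 22 fragments in the library labelled Epc-dKO and 24.6 in wild type (ratio 0.797, interval 0.428 to 1.47). For box H/ACA RNAs the sums were 19.1 in the library labelled Epc-dKO and 18 in wild type (ratio 0.956, interval 0.475 to 1.93). These intervals cover counting error only and not the spread between animals. They treat fragments as independent, and PCR copies are not independent molecules, so they can be too narrow even for counting error.

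**Figure D3:**
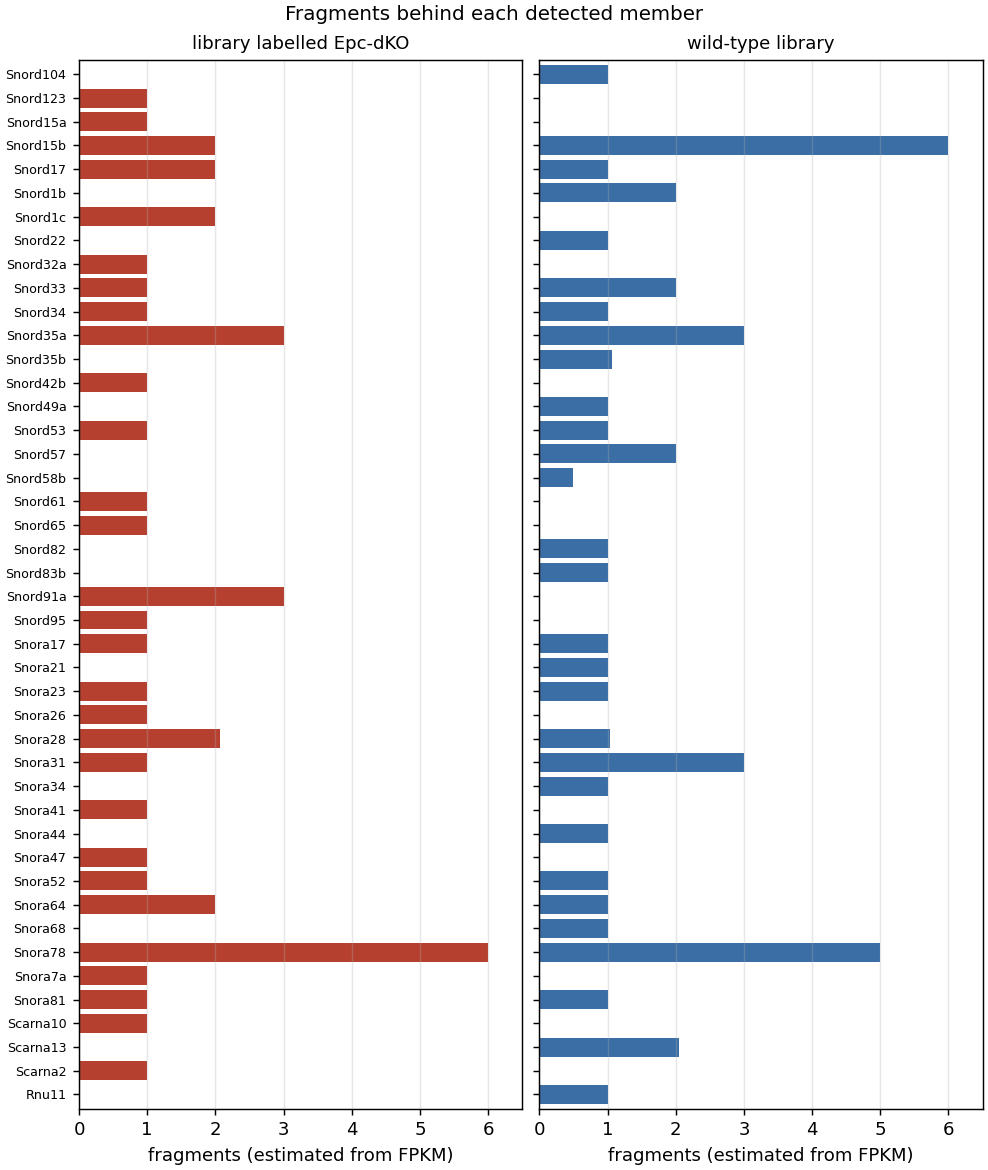
Fragments (x axis, estimated from FPKM) for each of the 44 members with a value above 0.001 FPKM, in the library labelled Epc-dKO (left) and the wild-type library (right). Most bars stop at 1 fragment, and none exceeds 6.

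Summed FPKM pointed the other way from summed fragments. The FPKM of all members summed to 2939 in the library labelled Epc-dKO and 1822 in wild type, although the library labelled Epc-dKO had the smaller number of fragments. The shortest members carried the sums. Members under 70 nt gave 86.0% of the summed FPKM but 23.2% of the fragments in the library labelled Epc-dKO, and 70.4% of the summed FPKM but 14.2% of the fragments in wild type. In that class 10 fragments in the library labelled Epc-dKO stood for 2527 FPKM, and 6.5 in wild type for 1283 FPKM. Between the detected members, 1 fragment was worth from 0.344 FPKM (Scarna13, 275 nt) to 682 FPKM (Snord42b and Snord58b, 55 nt) at the wild-type depth.

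**Figure D4:**
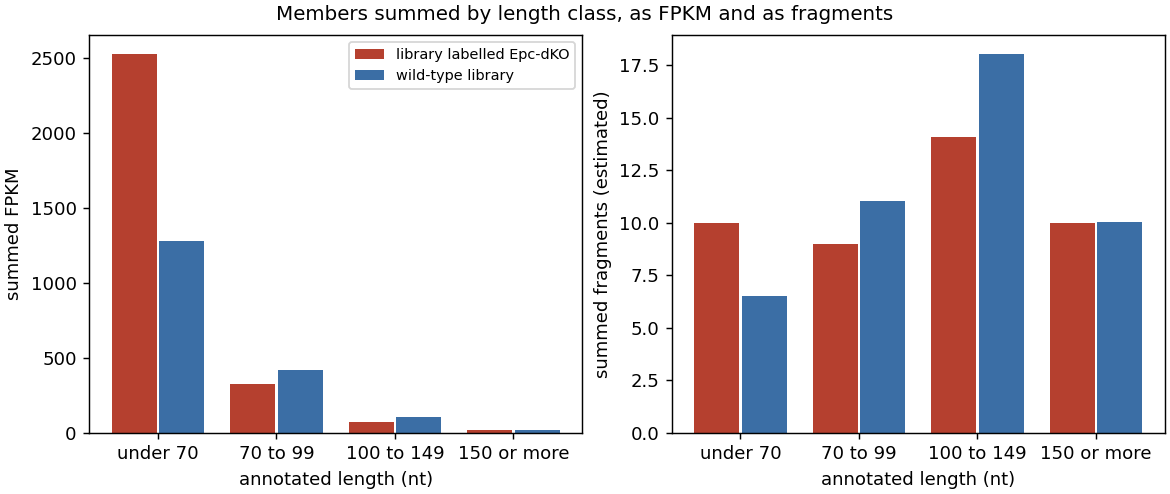
Summed FPKM (left) and summed fragments (right) of the members in 4 classes of RefSeq length (x axis, nt), with the library labelled Epc-dKO left of the wild-type library in each pair. The tall pair under 70 nt in FPKM rests on 10 and 6.5 fragments.

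The annotated lengths decide these values, and for some members the annotated stretch was only part of the RNA. Capitals below mark the stretch that the RefSeq gene model covers within the GENCODE transcript of the same symbol, for the 3 members with the highest FPKM in the library labelled Epc-dKO.
Snord91a: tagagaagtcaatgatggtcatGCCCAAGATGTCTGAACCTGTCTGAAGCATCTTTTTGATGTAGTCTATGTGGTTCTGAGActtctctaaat
Snord42b: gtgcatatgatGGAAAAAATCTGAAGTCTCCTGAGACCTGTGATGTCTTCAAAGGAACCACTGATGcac
Snord65: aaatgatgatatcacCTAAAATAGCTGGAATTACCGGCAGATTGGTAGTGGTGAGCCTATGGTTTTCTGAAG
The RefSeq model covered 60 of the 93 nt of Snord91a, 55 of the 69 nt of Snord42b and 57 of the 72 nt of Snord65, and 61 of the 414 nt of Scarna2, not printed. With the RefSeq lengths the printed members came out at 3, 1 and 1 fragments in the library labelled Epc-dKO.

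Of the 6 box C/D RNAs with values in both libraries, 3 had equal numbers of fragments. Snord35a had 67.2 FPKM in the library labelled Epc-dKO and 74.2 FPKM in wild type, which is 3 fragments in each. Snord34 had 121 FPKM in the library labelled Epc-dKO and 134 FPKM in wild type, which is 1 fragment in each, and Snord53 had 98.9 and 109 FPKM in the same order of libraries, again 1 fragment in each. Their FPKM differ only by the ratio of depths.
Snord15b, one of the U15 snoRNAs in the introns of Rps3, had 5.69 FPKM (2 fragments) in the library labelled Epc-dKO and 18.8 FPKM (6 fragments) in wild type. Its log2 ratio of FPKM + 1 was -1.57, and the depth-scaled ratio of fragments was 0.302 with an exact interval of 0.0298 to 1.69. Snord33 had 33.6 FPKM (1 fragment) in the library labelled Epc-dKO and 74.2 FPKM (2 fragments) in wild type, a log2 ratio of -1.12 and an interval of the ratio from 0.00767 to 8.70. Both intervals include 1, so neither difference was beyond counting error. Snord17, a long box C/D RNA of 221 nt, had 1.23 FPKM (2 fragments) in the library labelled Epc-dKO and 0.682 FPKM (1 fragment) in wild type.

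Box H/ACA RNAs were above 0 in both libraries for 9 of 36 genes. Snora78 had the most fragments, with 12.6 FPKM (6 fragments) in the library labelled Epc-dKO and 11.6 FPKM (5 fragments) in wild type. Its depth-scaled ratio was 1.09, with an exact interval of 0.276 to 4.5, and the log2 ratio of FPKM + 1 was 0.11. Snora31, within Tpt1, had 8.03 FPKM (1 fragment) in the library labelled Epc-dKO and 26.6 FPKM (3 fragments) in wild type. Its log2 ratio was -1.61, and the interval of the ratio of fragments ran from 0.00575 to 3.76.
Snora64, within Rps2, had 13.4 FPKM (2 fragments) in the library labelled Epc-dKO and 7.39 FPKM (1 fragment) in wild type, a log2 ratio of 0.78. Snora28, within Eif5, had 11.7 FPKM in the library labelled Epc-dKO and 6.44 FPKM in wild type, a log2 ratio of 0.77. Snora17, Snora23, Snora52 and Snora81 each had 1 fragment in both libraries. Snora26 had 5.83 FPKM (1 fragment) in the library labelled Epc-dKO and 6.24e-05 FPKM in wild type, so its place among the genes above 0 in both rests on a value that stands for no fragment.

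Cajal body and spliceosomal RNAs had few fragments in either library. Scarna2 had 221 FPKM in the library labelled Epc-dKO and was listed at 0 in wild type, and Scarna10 had 75.2 FPKM in the library labelled Epc-dKO and was listed at 0 in wild type. Each of these values was 1 fragment. Scarna13, within Snhg10, was listed at 0 in the library labelled Epc-dKO and had 0.703 FPKM in wild type. The other 6 Scarna genes were listed at 0 in both.
Rnu11, the U11 RNA of the minor spliceosome, was listed at 0 in the library labelled Epc-dKO and had 10.3 FPKM in wild type, again 1 fragment. Rnu12, the U12 RNA, and Rnu73b were listed at 0 in both libraries.

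The 30 members listed at 0 in 1 library alone are given without a fold. In the library labelled Epc-dKO alone, the values above 100 FPKM were Snord91a with 762, Snord42b with 617, Snord65 with 414, Scarna2 with 221 and Snord61 with 193. Snord91a had 3 fragments and each of the others 1. In wild type alone, the values above 100 FPKM were Snord57 with 376 (2 fragments), Snord58b with 341 (0.5), Snord49a with 213 (1), Snord82 with 109 (1) and Snord1b with 104 (2).
The remaining members of the library labelled Epc-dKO alone ran from Snord15a at 2.63 FPKM to Snord95 at 98.9 FPKM. Among them Snord1c, at 87.5 FPKM, had 2 fragments, and the others had 1 each. The remaining members of wild type alone ran from Scarna13 at 0.703 FPKM to Snord104 at 70.3 FPKM, apart from Snora24 at 2.54e-06 FPKM, which stands for no fragment.
Of the 30, 23 had 1 fragment within 0.1, and the most was 3. A listed 0 was taken to allow up to 3 fragments. None of the 30 had a value above the FPKM that 3 fragments would have had in the other library. This follows from their small numbers of fragments and is not a separate check. For Snord57, 3 fragments would have been 511 FPKM in the library labelled Epc-dKO, against 376 FPKM measured in wild type.

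By a 2-fold rule the numbers of higher and lower members were close. Genes averaging at least 1 FPKM whose FPKM + 1 differed at least 2-fold between the libraries were called higher or lower in the library labelled Epc-dKO. Over all 10438 genes with that mean, 2.75% were higher and 1.88% lower. Of the 116 members 15 were higher, 17 lower and 10 within 2-fold, and 74 fell below the minimum. Their share is far from these backgrounds, but a short gene listed at 0 in 1 library passes the minimum only through the other library and then must differ. Of the 15 higher members 14 were listed at 0 in wild type, and of the 17 lower members 14 were listed at 0 in the library labelled Epc-dKO. The exceptions were Snora26 among the higher and Snora31, Snord15b and Snord33 among the lower. At most 1 fragment over both libraries stood behind 13 of the higher and 12 of the lower members. MicroRNA genes gave a like picture, with 42 higher, 41 lower and 18 within 2-fold among the 101 of 613 that passed the minimum.

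Shorter members were listed at 0 more often. Of 115 members with a RefSeq length, 33 of the 45 under 70 nt (73.3%) were listed at 0 in both libraries, 16 of the 27 from 70 to under 100 nt (59.3%), 18 of the 35 from 100 to under 150 nt (51.4%) and 3 of the 8 longer ones (37.5%). The lengths ran from 42 to 275 nt with a median of 82 nt. The 5 members shorter than 47 nt, Scarna9, Snord42a, Snord45b, Snord64 and Snord93, lie below the shortest fragment of the fitted distribution, and all were listed at 0.

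On the scale of FPKM + 1 nearly all host genes lay within 2-fold, as did 9955 of all 10438 expressed genes. The hosts of 27 members listed at 0 in 1 library alone were above 0 in both libraries. By the GENCODE annotation 109 of the 116 members lie within another gene on the same strand, and for 105 of them the host was in the table, as 77 different genes. Of the 61 hosts with a mean FPKM of 1 or more, 1 was higher and 1 lower, where 2.75% of all 10438 genes were higher and 1.88% lower. The hosts had a median log2 ratio of -0.32, against -0.05 over all 10438 genes. Of the 61, 42 had a log2 ratio below 0, and the share of all genes below 0 was not counted. By FPKM with no pseudocount, 2 of the 61 were at least 2-fold higher and 9 at least 2-fold lower, where 4.49% of all 10438 genes were higher and 7.25% lower. The host higher on both scales was Zbed3, with 11.9 FPKM in the library labelled Epc-dKO and 5.17 FPKM in wild type, where Snora47 had 1 fragment in the library labelled Epc-dKO alone. The host lower on the scale of FPKM + 1 was Rpl10, a ribosomal protein gene, with 1.65 FPKM in the library labelled Epc-dKO and 4.38 FPKM in wild type, whose Snora70 was listed at 0 in both.
The best covered host was Rpl13a, a ribosomal protein gene with 4 members, all detected. Rpl13a had 8.41 FPKM in the library labelled Epc-dKO and 14.4 FPKM in wild type (log2 ratio -0.71). Its snoRNAs Snord32a, Snord33, Snord34 and Snord35a together had 6 fragments in each library. Rps3 had 3.05 FPKM in the library labelled Epc-dKO and 4.80 FPKM in wild type (-0.52), and its Snord15a and Snord15b together had 3 fragments in the library labelled Epc-dKO and 6 in wild type. Sister snoRNAs of 1 host could fall on opposite sides. In 1810032O08Rik, with 1.15 FPKM in the library labelled Epc-dKO and 1.13 FPKM in wild type, Snord1c had 2 fragments in the library labelled Epc-dKO alone and Snord1b had 2 fragments in wild type alone. In 2410006H16Rik, with 0.950 FPKM in the library labelled Epc-dKO and 0.839 FPKM in wild type, Snord65 had 1 fragment in the library labelled Epc-dKO alone and Snord49a 1 fragment in wild type alone.
Members in a pair of abundant hosts had no fragments. Eef2, a translation elongation factor gene, had 689 FPKM in the library labelled Epc-dKO and 785 FPKM in wild type, and Tcp1, a chaperonin subunit gene, had 334 FPKM in the library labelled Epc-dKO and 355 FPKM in wild type. Snord37 in Eef2 and Snora20 in Tcp1 were listed at 0 in both libraries. Their RefSeq lengths were 53 and 61 nt, where 1 fragment was worth 1114 and 244 FPKM at the wild-type depth. Members of some other hosts, such as Snora64 in Rps2, did have fragments. Ncl, the nucleolin gene and host of Snord82, had 3.35 FPKM in the library labelled Epc-dKO and 6.85 FPKM in wild type.
Snhg9, the noncoding host of Snora78, was listed at 0 in both libraries. The median of the mean FPKM was 4.41 over 35 hosts of detected members, against 6.29 over the hosts of members listed at 0 in both.

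Of 103 expressed protein genes in 8 lists, 0 were past 2-fold on the scale of FPKM + 1, which narrows the differences of low genes, where the shares over all genes were 2.75% higher and 1.88% lower. By FPKM with no pseudocount, 1 was at least 2-fold higher and 11 at least 2-fold lower, beside 4.49% and 7.25% of all genes. The counts per list that follow are on the scale of FPKM + 1. Box C/D core protein genes had 0 of 5 expressed members past 2-fold and a median log2 ratio of -0.15, against -0.05 over all 10438 expressed genes. Fbl, which encodes the methyltransferase fibrillarin, had 18.4 FPKM in the library labelled Epc-dKO and 24.2 FPKM in wild type, and Nop58 had 23.5 FPKM in the library labelled Epc-dKO and 22.7 FPKM in wild type. Nop56, also the host of Snord57, had 2.34 FPKM in the library labelled Epc-dKO and 5.03 FPKM in wild type (-0.85).
Box H/ACA protein genes had 0 of 6 past 2-fold and a median of -0.39. Naf1, an assembly factor, had 3.85 FPKM in the library labelled Epc-dKO and 1.89 FPKM in wild type (0.74), and Shq1, another assembly factor, had 1.49 and 2.95 FPKM in the same order (-0.66). Dkc1, for the pseudouridine synthase dyskerin, had 0.796 FPKM in the library labelled Epc-dKO and 1.38 FPKM in wild type. Box C/D assembly factors had 0 of 8 past 2-fold and a median of -0.33. Among them Ruvbl2, an ATPase that is also a subunit of the TIP60 complex, had 80.9 FPKM in the library labelled Epc-dKO and 84.9 FPKM in wild type.
Genes of the Cajal body, the SMN complex and snRNA maturation had 0 of 17 past 2-fold and a median of -0.18. In that list Larp7, which binds the 7SK and U6 RNAs, had 154 FPKM in the library labelled Epc-dKO and 130 FPKM in wild type. The snRNA promoter factors and Integrator subunits had 0 of 22 past 2-fold and a median of -0.17. Ints1, an Integrator subunit, had the log2 ratio of FPKM + 1 farthest from 0 in that list and was past 2-fold by FPKM alone, with 19.1 FPKM in the library labelled Epc-dKO and 38.6 FPKM in wild type (-0.98).
Sm and Lsm ring genes had 0 of 13 past 2-fold and a median of -0.45, and 10 of the 13 had a log2 ratio below 0, with Snrpd2 at 45.1 FPKM in the library labelled Epc-dKO and 46 FPKM in wild type. Minor spliceosome protein genes, the partners of U11 and U12, had 0 of 9 past 2-fold and a median of -0.23. Snrnp35 had 17.6 FPKM in the library labelled Epc-dKO and 20.8 FPKM in wild type, and Zrsr2 had 0.710 and 2.04 FPKM in the same order (-0.83). Nucleolar transcription and rRNA processing genes had 0 of 23 past 2-fold and a median of -0.31, and 18 of the 23 had a log2 ratio below 0, with Npm1 at 71.8 FPKM in the library labelled Epc-dKO and 69.4 FPKM in wild type. A list of host genes from textbook knowledge had 1 of 55 lower, Rpl10, 0 higher and a median of -0.35. Each of these lists had a median below that of all genes, except that on the TPM scale the box C/D core list was at -0.092 and all genes at -0.13. The median of all genes was itself below 0 (-0.05), and the share of all genes below 0 was not counted. The counts of list genes below 0 therefore stand without a baseline. The difference from all genes was not tested.

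**Figure D5:**
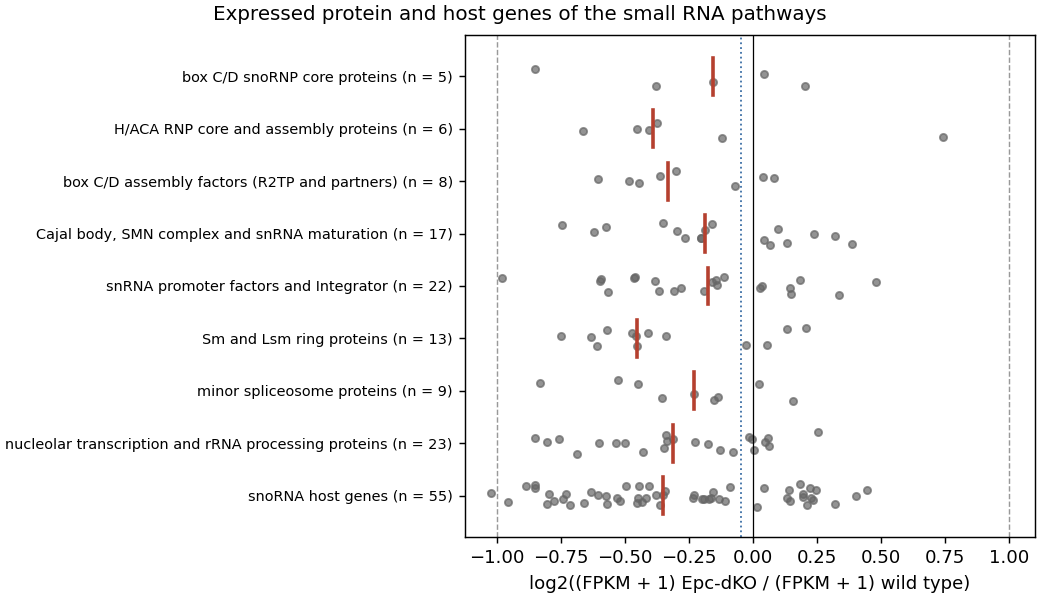
Log2 ratio of FPKM + 1, library labelled Epc-dKO over wild type (x axis), for each expressed gene (grey points) of 9 lists. Red bars give list medians, from -0.45 to -0.15, the blue dotted line the median of all expressed genes (-0.05), and dashed lines 2-fold on the scale of FPKM + 1, with Rpl10 alone beyond them.

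Summed markers of other testis cells gave smaller values for the library labelled Epc-dKO and those of spermatids a greater one, but a few genes carried several of the sums. The 9 expressed spermatogonial markers of 12 all had a log2 ratio below 0 (median -0.75), and the 12 summed to 18.1 FPKM in the library labelled Epc-dKO and 38.8 FPKM in wild type. Among those under the minimum, Id4 went the other way, with 1.14 FPKM in the library labelled Epc-dKO and 0.630 FPKM in wild type. Nanos3 and Sohlh1, also under it, had log2 ratios below 0. Sertoli cell markers (3 of 9 expressed, median -0.63) summed to 9.09 FPKM in the library labelled Epc-dKO and 15.5 FPKM in wild type, and peritubular markers (4 of 8, median -0.63) to 7.72 and 14.8 FPKM in the same order. Leydig cell markers (7 of 8, median -0.03) summed to 25 and 32.5 FPKM, spermatocyte markers (10 of 10, median -0.12) to 210 and 310 FPKM, and endothelial, blood and immune markers (1 of 9 expressed) to 4.83 and 6.05 FPKM. Without Insl3 (6.79 FPKM in the library labelled Epc-dKO and 14.9 FPKM in wild type) the Leydig sums were 18.3 and 17.6 FPKM in the same order. Without Nek2 and Ccna1 the spermatocyte sums were 76.4 FPKM in the library labelled Epc-dKO and 74.4 FPKM in wild type. Spermatid markers, which define the labelled cell type, were all expressed and summed to 1769 FPKM in the library labelled Epc-dKO and 882 FPKM in wild type, with a median of 0.19. Of the 12, 4 were higher, namely the protamine genes Prm1 and Prm2 and the transition protein genes Tnp1 and Tnp2, and the other 8 were within 2-fold. Prm2 alone had 675 FPKM in the library labelled Epc-dKO and 82.8 FPKM in wild type. Without those 4 and Odf1, the remaining 7 summed to 511 FPKM in the library labelled Epc-dKO and 553 FPKM in wild type. The part of these cell types in the protein and host gene values was not tested. Epc1 had 13.6 FPKM in the library labelled Epc-dKO and 11.4 FPKM in wild type, and Epc2 had 10.5 and 7.12 FPKM in the same order. Because the labels do not give the alleles, these values per gene do not check the labels. Why neither gene was lower in the library labelled Epc-dKO was not tested.

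The RNAs of RNase MRP and RNase P, longer structured RNAs of the nucleolus and nucleus, rested on far more fragments than any member. Rmrp had 6.23 FPKM (20.0 fragments) in the library labelled Epc-dKO and 34.4 FPKM (100 fragments) in wild type. Its depth-scaled ratio was 0.181, with an exact 95% interval of 0.106 to 0.295. Rpph1 had 5.76 FPKM (29.0 fragments) in the library labelled Epc-dKO and 39.2 FPKM (179 fragments) in wild type, a ratio of 0.147 with an interval of 0.0955 to 0.218. Both intervals lie below that of the members as a sum, 0.545 to 1.31. With 1 library per genotype these intervals compare the libraries and not the genotypes. They too treat fragments as independent and can be too narrow.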

How the data were processed

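RNA-seq libraries were made from total RNA of round spermatids with the NEBNext Ultra Directional kit and 15 cycles of PCR, per the labels' protocols. The authors deposited 1 table of FPKM per gene with 1 column per library. Cufflinks 2.2.1 and the mm9 genome are named per the submitters' processing notes, while aligner, annotation, strand setting and scaling were not stated. Of 23235 rows, 1 began with the header's own first cell, named no gene and was dropped.

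Log2 ratios used a pseudocount of 1, which understates changes of low genes. Fragments were recovered from the FPKM as described beside the values, with gene lengths of RefSeq (GRCm38), matched for 115 of 116 members. Simulated data with known answers served to check the code of the fit and the calls. They held noise-free changes beyond the 2-fold rule and whole fragments at exact lengths. They therefore cannot show how well the fit describes these libraries. Hosts and sequences came from GENCODE M21 (GRCm38), so no coordinates are printed. The rule for named genes took members of 100 FPKM or more in 1 library and listed at 0 in the other. It also took up to 10 with the largest rise and up to 10 with the largest fall among members above 0 in both and averaging at least 5 FPKM. The 5 highest members of each library, detected Scarna and Rnu genes, hosts of all these, the 2 most abundant and 2 most changed genes of each protein list, Epc1, Epc2, Rpph1 and Rmrp completed it. Other members, Dkc1, Zbed3, Rps3a, Eef2 and Tcp1 beside their snoRNAs, Rps3, 1810032O08Rik marker genes and the genes of the closing observations were named after their values were seen. Members and lists were chosen with earlier results of these data known. Python 3.11.15 was used with pandas 2.3.3, SciPy 1.17.1, NumPy 2.4.6 and Matplotlib 3.10.9.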

Additional observations from a re-analysis of the deposited data

How the results depend on the processing

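The counts of members past 2-fold depended on the members listed at 0. With members above 0 in both libraries alone, 1 was higher and 3 were lower. With members of more than 3 fragments alone, chosen after seeing the data, 0 of 5 were higher and 2 lower. Both counts are smaller by construction since fewer members count. Of the 5, Snora28 passed only by a part of a fragment, at 2.07 in the library labelled Epc-dKO and 1.03 in wild type. With a length of 121 nt in place of 122 nt it would not have passed. With a pseudocount of 10, 11 members were lower. The other settings kept both counts within 1.5 times. Of 132 values of named members under alternatives, 127 kept their side of 2-fold and 0 reversed. A reversal was counted only for members past 2-fold. Those listed at 0 in 1 library could not reverse under any pseudocount or scaling, so for them the 0 was fixed in advance. List medians moved by over 0.1 as follows, and the cause was not tested. A pseudocount of 10 gave -0.085 for H/ACA proteins, -0.077 for box C/D assembly factors, -0.064 for snRNA promoter factors and Integrator, -0.15 for Sm and Lsm, -0.083 for nucleolar proteins and -0.16 for host genes. A pseudocount of 0.1 gave -0.57 for H/ACA and -0.56 for Sm and Lsm. A mean FPKM of 5 or more gave -0.12 for H/ACA, -0.18 for Sm and Lsm, -0.34 for minor spliceosome, -0.045 for nucleolar proteins and -0.23 for host genes. The TPM scale gave -0.58 for H/ACA and -0.44 for assembly factors, and no minimum gave -0.19 for host genes. With no pseudocount, chosen after seeing the data, 1 box C/D core, 1 Cajal body, 2 promoter and Integrator, 2 Sm and Lsm, 1 minor spliceosome, 4 nucleolar and 6 listed host genes were at least 2-fold lower, 1 H/ACA gene was higher, and of the annotated hosts 2 were higher and 9 lower. No scaling moved the median of all genes by over 0.1. No paired analysis was possible because the study gives a single library for either genotype. A loss of 1 fragment is all that separates most of the members listed at 0 in 1 library from a listed 0 in both.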

Other observations

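Other small noncoding RNA genes outside the 116 gave the following values. Rprl3, an RNase P RNA-like gene, had 1.47 FPKM (2.92 fragments) in the library labelled Epc-dKO and 14.6 FPKM (26.3 fragments) in wild type. Rn4.5s had 6.87 FPKM (4.8 fragments) in the library labelled Epc-dKO and 17.1 FPKM (10.8 fragments) in wild type, a ratio of 0.402 with an exact 95% interval of 0.112 to 1.28. Gm12238 was listed at 0 in the library labelled Epc-dKO and had 5.83 FPKM (1 fragment) in wild type. Terc, the telomerase RNA, which ends in an H/ACA domain, and Vaultrc5, a vault RNA, were listed at 0 in both libraries.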
